A study of Mus musculus with 6 samples.

Results

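The genes that move zinc, copper and iron across membranes, store these metals or sense them were examined in mouse oocytes of a Uba3 conditional knockout. Members were chosen by symbol: every Slc30a and Slc39a transporter whose symbol matched a row of the deposited table, together with Slc11a1, Slc11a2, Slc31a1, Slc31a2, Slc40a1, Atp7a, Atp7b, Mt1, Mt2, Mtf1, Tfrc, Fth1 and Ftl1. They made up 35 of its 28738 genes. RNA was sequenced from fully-grown GV (germinal vesicle) oocytes, which still hold their intact nucleus before meiosis resumes, of the C57/Bl6/N;129SvEv7 strain in both groups. Each group held 3 libraries, from pools of about 150 oocytes, labelled either control or Uba3 cKO (conditional knockout), and libraries are called by group and replicate number, such as control 1. The sources used here do not give the Cre driver, the deleted exons, the alleles that the controls carry or the age of the mice. Uba3 is part of the enzyme that activates NEDD8, the ubiquitin-like protein that switches on cullin-RING ubiquitin ligases.

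Oocytes accumulate zinc while they mature and expel part of it at fertilization, and zinc is needed for the arrest and resumption of meiosis. ZIP transporters (Slc39a genes) bring zinc into the cytosol, ZnT transporters (Slc30a genes) take it out of the cell or into vesicles, and metallothioneins bind it in the cytosol. MTF1, the zinc-sensing transcription factor, drives metallothionein genes and Slc30a1 from metal response elements in their promoters. Cellular iron is set mainly after transcription. The iron regulatory proteins IRP1 (Aco1) and IRP2 (Ireb2) bind hairpins called iron-responsive elements. Such binding stabilizes the transferrin receptor mRNA, whose hairpins lie in the 3' UTR, and blocks translation of ferritin and ferroportin mRNAs, whose hairpin lies in the 5' UTR. FBXL5, a substrate receptor of a cullin-RING ligase, marks the iron regulatory proteins for destruction when iron is plentiful.

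All values are log2 values as normalized and deposited by the authors. Differences are Uba3 cKO minus control on that log2 scale. Linear values are 2 raised to the deposited log2 value. A gene was tested if at least 3 libraries had a linear value no lower than 10. It was called where the Benjamini-Hochberg adjusted p over all tested genes was under 0.05 in limma. Uba3 stood at 11.37, 11.46 and 11.34 in the controls and at 10.03, 10.16 and 10.36 in Uba3 cKO, a 2.31-fold lower level (adjusted p = 2.07e-05). All 10 oocyte markers checked were tested, with summed linear levels of 427304 to 487873 in control and 381442 to 422370 in Uba3 cKO libraries. Of these 0 were called higher and 2 lower, Zp2 and Bmp15, and their median log2 difference was -0.15. Some markers of other ovarian cells were present in every library as well, at uneven levels within each list. The summed linear level of 12 theca, stroma and luteal markers was 3604 to 5681 in control and 2532 to 3256 in Uba3 cKO, and 6 of the 11 tested were called lower. That of 12 granulosa and cumulus markers was 20466 to 29582 against 18792 to 22816, with 2 called higher and 1 lower. Blood and immune markers summed to 594 to 708 against 545 to 594 (2 of 8 tested called lower), with Hba-a2, Hbb-bt and Cd14 under a linear value of 10 in every library. Endothelial markers summed to 3703 to 4042 against 3777 to 4297 (1 of 7 tested called lower). Pecam1 and Tek held most of this sum, at mean linear levels of 2524 and 1033 in control. Tie1 and Kdr stood at 184 and 90.1, Vwf, Cdh5 and Emcn at 44.5, 20.4 and 15.9, and Cldn5 at 6.31. Control means ran from 28.6 (Foxl2) to 5579 (Inha) in the granulosa list and from 2.68 (Insl3) to 2036 (Hsd3b1) in the theca list. The metal-handling genes are also used by such cells. The part of these cells in the results was not tested, and in pooled oocytes fewer cells of a type and less RNA per cell cannot be told apart.

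A few metal-handling genes were called in Uba3 cKO oocytes, about as often as among all tested genes. The set did not move one way. The zinc exporter gene Slc30a1 and the transferrin receptor gene Tfrc were called higher, and the zinc sensor gene Mtf1 lower. Of the 35 members 30 were tested, of which 2 were called higher, 1 lower and 27 were not called. The called share was 10%, beside a background of 8.14% over all 17450 tested genes (5.64% higher and 2.5% lower). The median log2 difference of the tested members was -0.07, beside -0.01 over all tested genes, with 13 members above 0 and 17 below. The groups did not overlap for 14 members, 7 higher and 7 lower in Uba3 cKO (46.7%, beside a background of 27.9%). Leaving out 1 library at a time gave 0 to 3 members called higher and 0 called lower. No member was called without Uba3 cKO 3.

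**Figure D1:**
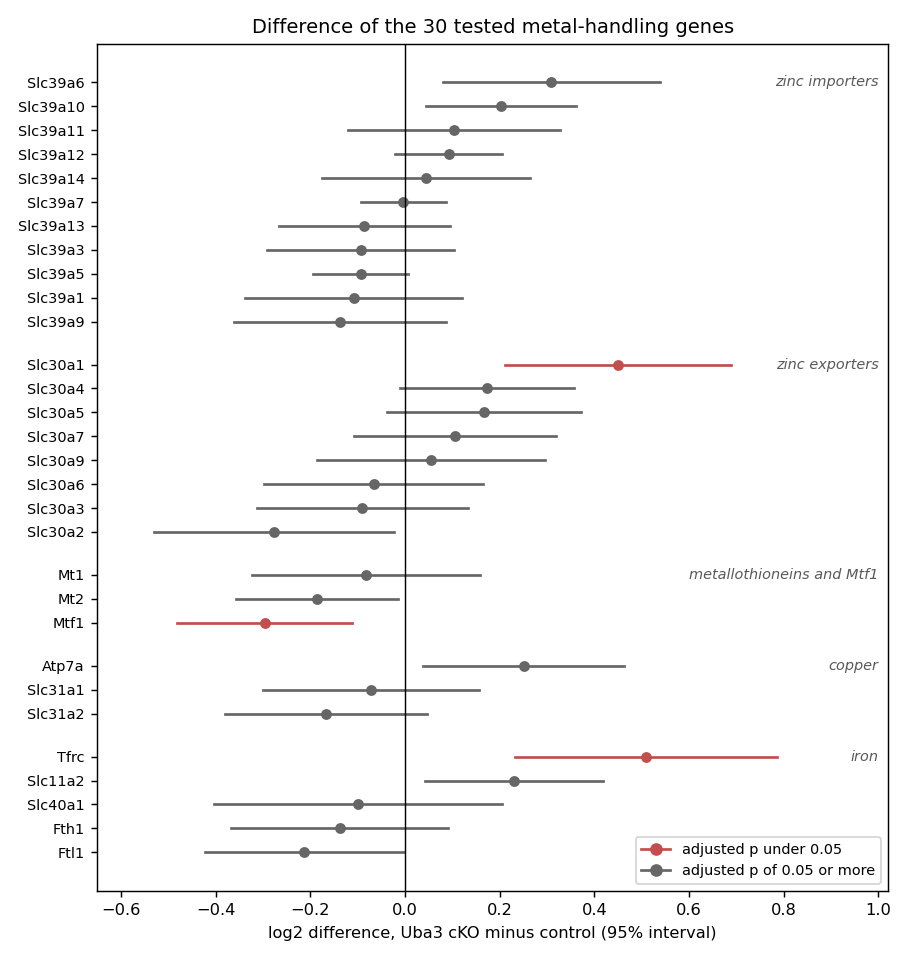
Log2 difference between Uba3 cKO and control (points, x axis) with its 95% interval from limma (lines) for the 30 tested genes, grouped by role. Slc30a1 and Tfrc lie to the right of 0 and Mtf1 to the left with adjusted p under 0.05, and the other 27 are drawn in grey.

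Zinc import rested on few genes at the RNA level. Slc39a10, which encodes ZIP10, had the highest level of all members per length, 3189 linear units per kb of its longest transcript in control. Slc39a6, which encodes ZIP6, followed among the importers with 831 per kb. ZIP6 and ZIP10 are the importers known to load zinc into the maturing oocyte. No other importer exceeded the 144 per kb of Slc39a1, a plasma membrane importer, and Slc39a9, a Golgi importer, stood at 137 per kb. Slc39a11, Slc39a3, Slc39a14 and Slc39a13 lay between 27.6 and 47.2 per kb. Slc39a5, Slc39a12 and Slc39a7 lay between 6.11 and 8.95 per kb. Slc39a8 and Slc39a4, the intestinal zinc importer, were under the level filter at mean log2 values of 3.30 and 2.68 in control. Slc39a2 and the exporter Slc30a8 were not analysed here. Counted over whole transcripts, Slc39a10 made up 78.4% of the summed linear level of the 11 tested importers.

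**Figure D2:**
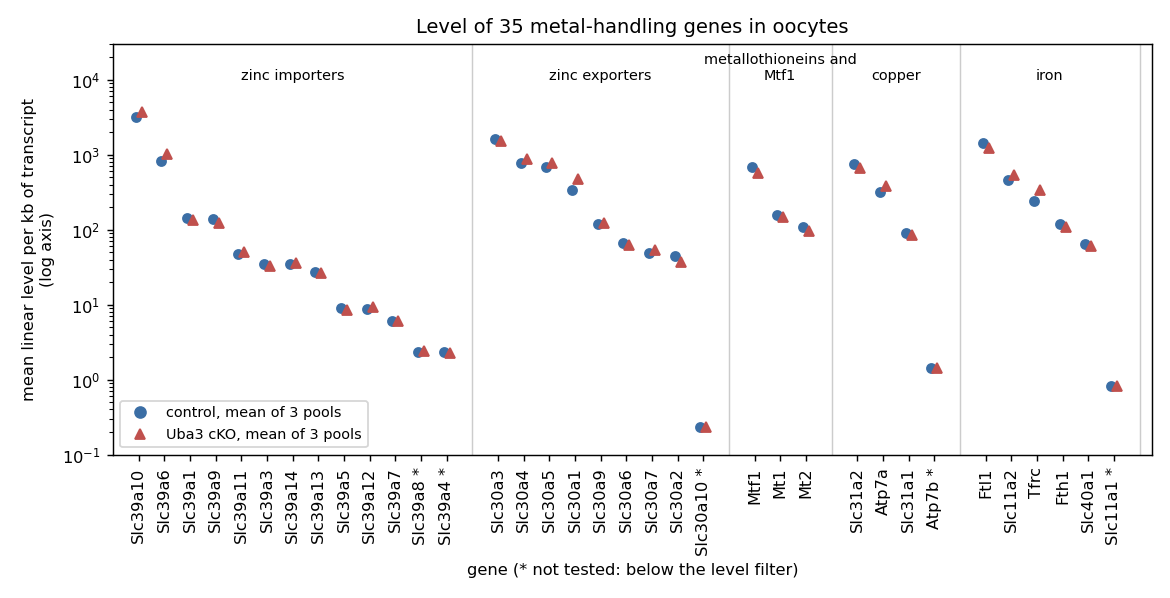
Mean linear level per kb of the longest annotated transcript (y axis, log scale) in control (circles) and Uba3 cKO (triangles), each the mean of 3 pools, for all 35 genes by role. Slc39a10 stands highest at 3189 per kb in control, and genes with an asterisk were below the level filter.

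No zinc importer gene was called, and for the pair of most abundant ones all Uba3 cKO libraries lay above all controls. Slc39a10 (ENSMUSG00000025986, chromosome 1) stood at 14.13, 14.12 and 14.04 in control and at 14.28, 14.24 and 14.37 in Uba3 cKO. The groups did not overlap, and the difference of 0.20 (SE 0.07, 95% interval 0.04 to 0.36) had an adjusted p = 0.114. Slc39a6 (ENSMUSG00000024270) stood at 11.83, 11.40 and 11.71 in control and at 11.91, 11.97 and 11.99 in Uba3 cKO. The groups did not overlap, control 2 was lowest, and the difference was 0.31 (SE 0.11, 95% interval 0.08 to 0.54, adjusted p = 0.0970). Without control 2 it was 0.19 (adjusted p = 0.290). Slc39a6 was called without control 1 (adjusted p = 0.0280). Slc39a10 was called with quantile normalization (adjusted p = 0.0406) and with sample weights (adjusted p = 0.0442). With a correction for transcript length and GC content its difference was 0.14 (adjusted p = 0.231). Leaving out 1 library at a time gave 0.17 to 0.23 (adjusted p 0.103 to 0.334).

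The other 9 tested importers differed by -0.14 to 0.10, and none had an adjusted p under 0.25. Slc39a9 stood at 9.65, 9.50 and 9.46 in control and at 9.48, 9.45 and 9.26 in Uba3 cKO. The groups overlapped, and the 95% interval of its difference was -0.36 to 0.09. Slc39a1 (-0.11) and Slc39a14 (0.04), which also carries iron and manganese, overlapped between the groups too. For Slc39a3 (-0.09) and Slc39a5 (-0.09) every Uba3 cKO library was below every control library, with group means less than 0.1 apart. The summed linear level of the tested importers was 23284, 22177 and 21785 in control and 25352, 25036 and 26801 in Uba3 cKO, 1.15 times higher. The two-sided exact permutation p was 0.1, and 3 libraries against 3 cannot give a smaller one. Since Slc39a10 holds most of this sum, it mainly restates that gene.

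Among zinc exporters the plasma membrane exporter was the only gene called. Slc30a1 (ENSMUSG00000037434, chromosome 1), which encodes ZnT1, the exporter that moves cytosolic zinc out of the cell, stood at 10.75, 10.67 and 10.99 in control. In Uba3 cKO it stood at 11.34, 11.08 and 11.35, so every Uba3 cKO library lay above every control library. Slc30a1 rose 1.37-fold, a log2 difference of 0.45 (SE 0.11, 95% interval 0.21 to 0.69, adjusted p = 0.0242). Its call ended without control 2 (adjusted p = 0.0896), Uba3 cKO 1 (adjusted p = 0.105) or Uba3 cKO 3 (adjusted p = 0.109).

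The most abundant exporters per length fill vesicles and the secretory pathway. Slc30a3, which encodes ZnT3, the transporter of synaptic vesicles, stood highest at 1606 linear units per kb in control. Slc30a4 (ZnT4) had 786 and Slc30a5 (ZnT5, a Golgi transporter) 694 per kb, against 343 for Slc30a1. Slc30a4 stood at 11.99, 12.14 and 12.06 in control and at 12.29, 12.19 and 12.25 in Uba3 cKO. Every Uba3 cKO library was above every control library, with a difference of 0.17 (95% interval -0.01 to 0.36, adjusted p = 0.251). Slc30a3 stood at 11.54, 11.78 and 11.80 in control and at 11.77, 11.49 and 11.59 in Uba3 cKO. These values overlapped, and the difference was -0.09 (adjusted p = 0.656). Slc30a5 stood at 11.54, 11.30 and 11.46 in control and at 11.65, 11.51 and 11.65 in Uba3 cKO, which overlapped (0.17, adjusted p = 0.318).

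Slc30a2, a vesicular transporter known for zinc secretion into milk, was the exporter with the lowest difference. It stood at 7.12, 7.10 and 7.15 in control and at 6.87, 6.58 and 7.09 in Uba3 cKO, and the groups did not overlap. The difference was -0.28 (SE 0.12, 95% interval -0.53 to -0.02, adjusted p = 0.178). The control values were close together and the Uba3 cKO values spread, with replicate 2 lowest. Slc30a6, the Golgi partner of ZnT5, Slc30a7, another Golgi transporter, and Slc30a9, which exports zinc from mitochondria, overlapped between the groups with differences of -0.07, 0.11 and 0.05 from control means of 7.14, 8.80 and 9.41. Slc30a10, better known as a manganese exporter, was under the level filter at 0.45 in control. The summed linear level of the 8 tested exporters was 13286, 13557 and 14054 in control and 15697, 14128 and 15169 in Uba3 cKO, 1.10 times higher (exact two-sided permutation p = 0.1).

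Mtf1 and the metallothioneins are shown with the promoters of the genes that MTF1 is known to drive. The lines give the 80 bases before the annotated start in GRCm38.p6, taken from RefSeq, 5' to 3' on the plus strand, which is the strand of each gene. Capitals mark the core metal response motif, searched as TGCACNC or TGCGCNC on both strands.
Slc30a1, chr1:191906701-191906780: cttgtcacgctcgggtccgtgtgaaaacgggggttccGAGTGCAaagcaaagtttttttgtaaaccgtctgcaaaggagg
Mt1, chr8:94179009-94179088: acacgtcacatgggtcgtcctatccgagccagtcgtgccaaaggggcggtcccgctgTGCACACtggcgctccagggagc
Mt2, chr8:94172538-94172617: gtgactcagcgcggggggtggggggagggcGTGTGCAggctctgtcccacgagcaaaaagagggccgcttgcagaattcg
In the whole window of 300 bases, from 250 before the start, Slc30a1 held 2 matches, Mt1 3 and Mt2 4, and Mtf1 held 0. The motif is common: 25.7% of the 32851 promoter windows in the table held a match. Of 37 windows for 30 members, 18 (48.6%) did. A match is a string of letters and does not show binding.

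Mtf1 was called lower, and these genes of known MTF1 control did not move together. Whether MTF1 has a part in their RNA levels here was not tested. Mtf1 (ENSMUSG00000028890, chromosome 4) stood at 12.36, 12.40 and 12.34 in control and at 12.10, 11.97 and 12.15 in Uba3 cKO. Every Uba3 cKO library was below every control library, a 1.23-fold lower level (-0.30, SE 0.09, 95% interval -0.48 to -0.11, adjusted p = 0.0484). This call lay just under the threshold and ended without any of the 6 libraries (adjusted p 0.0594 to 0.147), although the difference stayed between -0.33 and -0.25. It also ended with no level filter (adjusted p = 0.0690) and with libraries centred on their median (adjusted p = 0.0546).

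Metallothionein transcripts were at moderate levels and were not called. Mt1 (ENSMUSG00000031765, chromosome 8) stood at 7.49, 7.35 and 7.39 in control and at 7.32, 7.53 and 7.13 in Uba3 cKO. The groups overlapped, with a difference of -0.08 (95% interval -0.32 to 0.16), and without Uba3 cKO 3 it was 0.02. Mt2 (ENSMUSG00000031762, chromosome 8) stood at 5.78, 5.78 and 5.84 in control and at 5.64, 5.72 and 5.47 in Uba3 cKO. Each Uba3 cKO value lay below each control value (-0.19, SE 0.08, adjusted p = 0.178). Mt1 and Mt2 summed to linear levels of 235, 218 and 225 in control and 210, 238 and 185 in Uba3 cKO (exact two-sided permutation p = 0.5). Slc30a1, with the same core motif, is the gene of the 3 that rose.

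A further metallothionein gene outside the member rule, Mt4, known from stratified squamous epithelium, did rise. Mt4 (ENSMUSG00000031757, chromosome 8) stood at 6.62, 6.69 and 6.68 in control and at 7.32, 7.02 and 7.37 in Uba3 cKO. The groups lay well apart, a 1.49-fold rise (0.57, SE 0.11, adjusted p = 0.00475), and the call held without each single library. Mt3, the brain metallothionein, overlapped between the groups (-0.06, adjusted p = 0.584). Metallothionein genes are short and alike, so how reads were divided among them is uncertain.

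**Figure D3:**
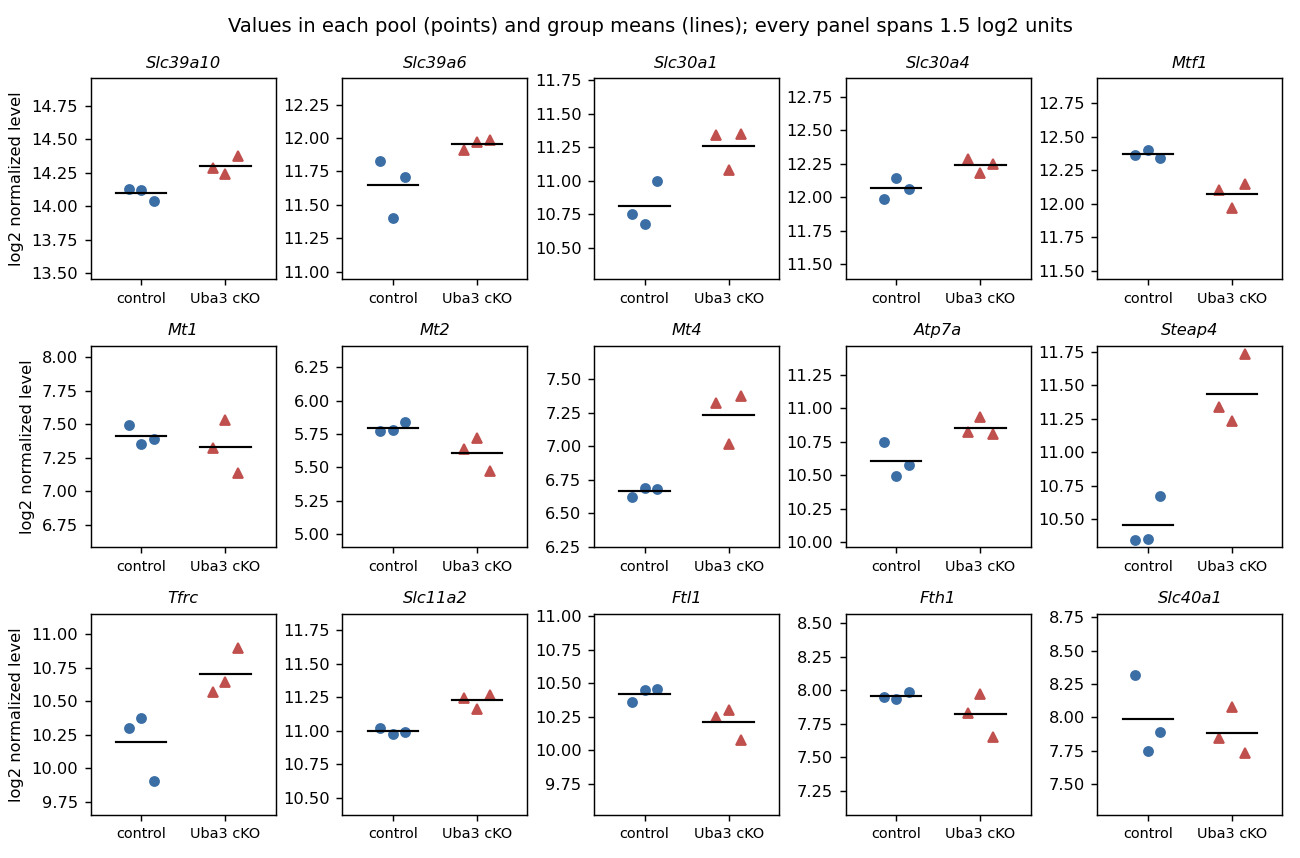
Deposited log2 values (y axis) in each of the 3 control pools (circles) and 3 Uba3 cKO pools (triangles) for 15 genes, with group means as lines and the same span in every panel. Slc30a1, Mt4, Steap4 and Tfrc sit higher in all Uba3 cKO pools, Mtf1 sits lower, and Mt1, Fth1 and Slc40a1 overlap.

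No copper transporter gene was called. Atp7a (ENSMUSG00000033792, chromosome X), the P-type ATPase that loads copper into the secretory pathway and exports it, stood at 10.75, 10.49 and 10.58 in control. It stood at 10.82, 10.94 and 10.81 in Uba3 cKO, each above every control (0.25, SE 0.10, 95% interval 0.04 to 0.46, adjusted p = 0.144). Its liver counterpart Atp7b was under the level filter at 3.22 in control. Slc31a2, which encodes the intracellular copper transporter CTR2, had the highest copper transporter level per length (744 linear units per kb in control). Slc31a2 stood at 10.32, 10.54 and 10.34 in control and at 10.25, 10.15 and 10.30 in Uba3 cKO. The groups lay apart with a narrow gap, and the difference of -0.17 had an adjusted p = 0.344. Slc31a1, the high-affinity importer CTR1, stood at 8.66, 8.38 and 8.60 against 8.41, 8.47 and 8.55. It overlapped (-0.07, adjusted p = 0.740).

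Iron genes are shown by their iron-responsive elements, because these hairpins divide the uptake receptor from the storage and export genes. Sites were searched in the UTRs of GENCODE M21 transcripts as an unpaired C, 5 bases, the loop CAGTGN and 5 bases that pair with the 5 before the loop, G-T pairs allowed. The lines give 29 bases of mRNA sense, 5' to 3' with T for U, and capitals mark the 6-base loop.
Tfrc 3' UTR, bases 3321 to 3337: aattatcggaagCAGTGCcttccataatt
Tfrc 3' UTR, bases 3700 to 3716: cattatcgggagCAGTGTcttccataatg
Tfrc 3' UTR, bases 3765 to 3781: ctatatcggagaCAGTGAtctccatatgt
Tfrc 3' UTR, bases 3812 to 3828: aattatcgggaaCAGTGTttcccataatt
Ftl1 5' UTR, bases 84 to 100: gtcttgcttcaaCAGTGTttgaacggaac
Fth1 5' UTR, bases 664 to 680: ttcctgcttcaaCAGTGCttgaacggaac
Slc40a1 5' UTR, bases 96 to 112: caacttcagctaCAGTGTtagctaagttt
Positions are those of the 17-base core in the longest transcript that holds it. The pattern is rare: 0.142% of 21901 protein-coding genes had it in a 5' UTR and 0.589% in a 3' UTR. Among the 35 members these 4 genes had it. The search found none in Slc11a2, which says only that this pattern is not in its annotated UTRs.

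The gene with 3' UTR sites rose, and those with a 5' UTR site were not called. Whether the sites have a part in these RNA levels was not tested. Tfrc (ENSMUSG00000022797, chromosome 16), the receptor that takes up transferrin-bound iron, stood at 10.30, 10.37 and 9.91 in control and at 10.57, 10.64 and 10.90 in Uba3 cKO. Control 3 was lowest and Uba3 cKO 3 highest, and the groups did not overlap. Tfrc rose 1.42-fold, a log2 difference of 0.51 (SE 0.13, 95% interval 0.23 to 0.79, adjusted p = 0.0273). The call ended without control 3 (0.37, adjusted p = 0.140), without Uba3 cKO 3 (0.41, adjusted p = 0.128) and in a fit with no intensity trend (adjusted p = 0.0632).

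Slc11a2 (ENSMUSG00000023030, chromosome 15), which encodes DMT1, the carrier of ferrous iron out of endosomes, had close replicates. It stood at 11.02, 10.98 and 10.99 in control and at 11.24, 11.17 and 11.27 in Uba3 cKO. Every Uba3 cKO value was above every control value (0.23, SE 0.09, 95% interval 0.04 to 0.42, adjusted p = 0.131). Slc11a1, the macrophage homologue, was under the level filter at 1.17 in control.

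The ferritin genes encode the light and heavy subunits of the iron storage shell. Ftl1 (ENSMUSG00000050708, chromosome 7) had the highest level of the iron genes per length, 1419 linear units per kb in control, against 120 for Fth1. This gap depends on the transcripts chosen, of 968 bases for Ftl1 and 2062 for Fth1. The longest Fth1 transcript that holds the site above has 1494. Before division by length the mean linear levels in control were 1373 and 248. Ftl1 stood at 10.36, 10.45 and 10.46 in control and at 10.25, 10.30 and 10.08 in Uba3 cKO. The groups did not overlap (-0.21, SE 0.10, adjusted p = 0.213). Fth1 (ENSMUSG00000024661, chromosome 19) stood at 7.95, 7.93 and 7.99 in control and at 7.83, 7.97 and 7.65 in Uba3 cKO, which overlapped (-0.14, adjusted p = 0.482). Ferritin has near-identical copies in the genome, so both are uncertain. The copy Ftl1-ps1 was called higher (0.33, adjusted p = 0.0311) at a log2 level of 5.15 in control, far under that of Ftl1. Slc40a1, the iron exporter ferroportin, stood at 8.31, 7.75 and 7.89 against 7.84, 8.08 and 7.73 (-0.10, adjusted p = 0.727), and its groups overlapped.

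The genes of the iron sensor itself were abundant and not called. Ireb2 (IRP2) stood at 13.37, 13.39 and 13.24 in control and at 13.42, 13.37 and 13.19 in Uba3 cKO (-0.01, 95% interval -0.19 to 0.18, adjusted p = 0.978). Fbxl5 stood at 12.40, 12.46 and 12.36 against 12.29, 12.31 and 12.41 (-0.07, adjusted p = 0.654). Both overlapped between the groups. Aco1 (IRP1) stood at 11.68, 11.89 and 11.80 in control and at 11.50, 11.43 and 11.56 in Uba3 cKO. It was lower in every Uba3 cKO library (-0.29, SE 0.09, adjusted p = 0.0665). Aco1 was called with quantile normalization (adjusted p = 0.0362), with sample weights (adjusted p = 0.0244) and without control 1 (adjusted p = 0.0318). It was further from a call with no level filter (adjusted p = 0.108) and when any other single library was left out (adjusted p 0.119 to 0.197).

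Other genes of zinc, copper and iron metabolism were counted from lists of 10, 20 and 49 genes, of which 74 were tested. Of these 6 were called higher and 3 lower (12.2%, beside the background of 8.14%). In the zinc list 1 of 9 tested genes, Mt4, was called higher. In the copper list 2 of 20 were called higher and none lower, with a median of -0.09. In the iron list 3 of 45 were called higher and 3 lower, with a median of -0.07 and 33 genes below 0. The groups were apart on the lower side for 15 of the 45 iron genes (33.3%, beside a background of 12.8%) and on the higher side for 3 (6.67%, beside 15.1%). In the copper list they were apart lower for 5 of 20 (25%) and higher for 3 (15%), with 15 genes below 0. In the zinc list they were apart lower for 0 of 9 and higher for 2 (22.2%).

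The largest change among them was in Steap4, a metalloreductase that reduces ferric iron and cupric copper. Steap4 (ENSMUSG00000012428, chromosome 5) stood at 10.35, 10.35 and 10.67 in control and at 11.34, 11.23 and 11.74 in Uba3 cKO. The lowest Uba3 cKO library was above the highest control, a 1.97-fold rise (0.98, SE 0.13, 95% interval 0.69 to 1.26, adjusted p = 5.54e-04). Leaving out single libraries gave adjusted p of at most 0.00423. Xiap, an inhibitor of apoptosis that binds copper and marks COMMD1 for degradation, stood at 11.28, 11.33 and 11.12 in control and at 11.64, 11.74 and 11.88 in Uba3 cKO. It rose 1.42-fold (adjusted p = 0.00627) with the groups apart, and its call held without each single library.

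The called iron genes named here belong to haem synthesis, haem transport and iron-sulfur assembly, in both directions. Cpox, the coproporphyrinogen oxidase of haem synthesis, stood at 10.60, 10.48 and 10.56 in control and at 11.04, 11.05 and 11.01 in Uba3 cKO. It rose 1.40-fold (adjusted p = 0.00484) with replicates close together, and the call held without each single library. Alas1, the first and rate-limiting enzyme of haem synthesis, stood at 10.36, 10.54 and 10.56 against 10.19, 10.05 and 10.15. It fell by 0.36 (adjusted p = 0.0405). Slc48a1, which exports haem from endosomes, fell by 0.39 (adjusted p = 0.0292). Isca1, an iron-sulfur assembly factor, rose by 0.48 (adjusted p = 0.0133). Leaving out any of 5 libraries ended the call of Alas1 (adjusted p as high as 0.169), which held only without control 1. Those of Slc48a1 and Isca1 were lost when control 2 or 3, or Uba3 cKO 1 or 3, was left out (adjusted p as high as 0.124 and 0.0724).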

How the data were processed

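The deposited table holds log2 values for 28738 Ensembl gene IDs in 6 libraries, normalized between libraries by the authors. Values span 0.0363 to 18.01, and the log2 unit is inferred from them. Per the submitters' processing notes the tools were featureCounts, STAR, fastp and DESeq2 and the build GRCm39, with no versions. For the transform and the strand setting the answer is: not given in the sources used here. If the values are shrunken at low levels, differences of low genes are understated. Library depth is unknown, because no read counts were analysed. Symbols (27660 IDs), chromosomes and transcript lengths came from GENCODE M21, an earlier build, and promoters from RefSeq (GRCm38.p6).

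Genes with a linear value of 10 or more in at least 3 libraries (17450) were fitted in R 4.3.3 by limma 3.58.1, its prior variance following the intensity trend, and p-values were adjusted over all of them. Role sums used an exact two-sided permutation test. Whether different animals gave each pool is not stated in the labels, and p-values cover only the spread between these pools, which may be technical. Members, gene lists and the rule for named genes were chosen with earlier results of these data known. The rule took Uba3, the called members and, in each role, the 3 of highest level with all 6 values, the other tested members by mean level, and from the other metal genes the called ones, Ireb2, Fbxl5 and Aco1, of which 2 called iron genes are not reported here. Mt3, Ftl1-ps1 and the single values of Slc30a2, Fth1 and Slc40a1 were added once their values were known. The limma code was tested on simulated data. Alternatives covered the filter, pseudocounts of 1 and 5, scaling, the intensity trend, a replicate block, sample weights, length and GC content, and leaving out each library.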

Additional observations from a re-analysis of the deposited data

How the results depend on the processing

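Of the 3 called members, Slc30a1 stayed called in all 11 alternatives that keep every library, Tfrc in 10 of them and Mtf1 in 8. No member was called lower with no level filter (0), with libraries centred on their median (0) or with the replicate block (0), and 1 was called higher with no intensity trend. The members' median difference was -0.0193 with no filter and -0.01 (-0.0057) with the length and GC correction, with or without the replicate block, and the importers' summed ratio was then 1.11 in both. Leaving out 1 library gave 0 to 3 members called higher, 0 called lower, a median of -0.06 to -0.01 (-0.0602 to -0.0092), and 482 to 1014 genes higher and 136 to 623 lower over the whole table. With sample weights 829 genes were lower. Same-numbered libraries did not deviate together (correlations of -0.09, -0.20 and -0.05). No control library correlated best with the Uba3 cKO library of its own number. With 3 libraries a group this gives no sign of a pairing but cannot exclude one, and the labels do not say what a number stands for. The block gave Mtf1 an adjusted p = 0.106. The call of Alas1 also ended with no filter and with the block, with or without the correction (adjusted p 0.0685 to 0.0793), and that of Slc48a1 with both together (0.0848). The difference of Ireb2 crossed 0 with sample weights (0.0643) and in 3 of 6 leave-one-out fits (-0.054 to 0.063). That of Mt1 ran from -0.184 to 0.0159 and crossed 0 when Uba3 cKO 3 was left out. The unknown depth limits what can be said of Slc39a4, Slc39a8, Slc30a10, Atp7b and Slc11a1.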

Other observations

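Separation of the groups went with level among the metal-handling genes, a split chosen after the values were seen. Of the 12 tested members whose control mean was at least 10, control and Uba3 cKO were apart for 10 (83.3%), 7 of them higher in Uba3 cKO and 3 lower (Mtf1, Ftl1 and Slc31a2). Over all tested genes at that level the share was 32.6% of 4587. Of the 18 members under 10 they were apart for 4 (22.2%), all lower, beside 26.3% of 12863 genes. The 4 were Mt2, Slc30a2, Slc39a3 and Slc39a5. Among the members whose groups were apart, direction also went with transcript length. The longest transcripts of the higher members had 3882 to 5498 bases, and those of the lower ones 511 to 3796, apart from Mtf1 (7631). Members whose groups overlapped went both ways. Slc30a7 (9020 bases, 0.11) and Slc39a1 (2364 bases, -0.11) followed the pattern, while Slc39a9 (5427 bases, -0.14) and Slc39a11 (2781 bases, 0.10) did not. Direction by length was not counted over all tested genes. The parts of level and length in this pattern were not tested.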
